A study of Danio rerio with 10 samples.

Results

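The 5 libraries described here come from brains of ppp2r2c m1/m1 zebrafish that received valproate (3 libraries) or vehicle (2 libraries), out of 10 libraries and 4 groups in the whole experiment. The members are libraries, chosen by their labels alone. All fish were of the Tübingen strain and 6 months old, and each library pooled 2 brains. The valproate group (mutant line a4) was fed food soaked in valproate at 300 mg/kg for 3 days, and the vehicle group of the same line received none. Another mutant group of 3 libraries received methylphenidate (MPH) at 1.08 mg/kg for 3 days, and 2 further libraries came from WT fish with vehicle. The m1 allele is a germline CRISPR deletion that shifts the reading frame of ppp2r2c, so it is carried by every cell type and not by the brain alone. The hour at which brains were taken, and whether the groups were collected on 1 day, are not given in the sources used here. Nothing in the labels says which fish shared a tank or clutch, so the p values measure the spread between these libraries.

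Valproate is a branched short-chain fatty acid used against seizures and in bipolar disorder. It inhibits class I histone deacetylases (HDACs), the enzymes that remove acetyl groups from histones, and it is also known for effects on sodium channels, on the transmitter GABA and on carnitine-dependent fatty acid metabolism. PPP2R2C is a brain-enriched regulatory B subunit of the phosphatase PP2A, which consists of a scaffold, a catalytic and a regulatory subunit. The comparison asks how the brain transcriptome of fish with the ppp2r2c mutation differed after 3 days of the drug.

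The valproate libraries held between 19224942 and 21800447 reads counted on genes, and the vehicle libraries 21031600 and 23057983. Levels are given as CPM, the count scaled to library size with TMM factors over all 10 libraries, and levels of different genes are not compared, since CPM does not account for gene length. The targeted gene PPP2R2C (ENSDARG00000056797) had 70.5, 56.1 and 59.6 CPM with valproate, against 46.3 and 46.7 CPM with vehicle. Its log2 fold change was 0.41 (standard error 0.14, edgeR adjusted p = 0.205), and counts per gene do not read the edited allele. Markers of neurons, oligodendrocytes and radial glia were high in all 5 libraries. Summed neuron markers ran from 18996 to 22394 CPM with valproate and from 20892 to 21034 CPM with vehicle. Small amounts of neighbouring tissue differed between libraries. Pituitary markers summed to 67.7 CPM in valproate replicate 1, against 5.72 and 8.16 CPM in replicates 2 and 3 and 11.4 and 8.82 CPM with vehicle. Retina and pineal markers summed to 368 CPM in valproate replicate 2, against 79.2 and 91.4 CPM in replicates 1 and 3 and 81.1 and 94.5 CPM with vehicle. The part of these tissues in the results was not tested.

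Valproate replicate 1 stood apart from the other valproate libraries. The median gene differed by 0.27 and 0.25 (log2) between replicate 1 and replicates 2 and 3, against 0.17 between replicates 2 and 3 and 0.19 between the vehicle libraries. The library nearest to it of all 9 others was MPH replicate 2, at 0.18, which also held pituitary markers (68.7 CPM). For that reason the numbers of list members that passed the adjusted threshold are given below with and without valproate replicate 1.

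edgeR's quasi-likelihood test with Benjamini-Hochberg adjustment called 26 of 19850 genes between valproate and vehicle (0.131%), at an adjusted p under 0.05. Of these, 13 were higher (0.0655%) and 13 lower (0.0655%) in the valproate libraries. For all 26 genes, the mean of the MPH libraries lay on the same side of the vehicle mean as the valproate mean. The WT mean did so too for each of them except NR1D1 (5.73 CPM in WT, 7.20 CPM with vehicle). All 26 were picked for their distance from these same vehicle libraries, so this side is not independent of that choice. The genes that rose included the clock repressor NR1D1, the pyruvate dehydrogenase kinase PDK2, the cholesterol exporter ABCA1 and the O-GlcNAc hydrolase OGA, and the genes that fell included globins, alas2, MCM2, beta-tubulins and FABP7. Without valproate replicate 1 the same test called 712 of 19514 genes, 336 higher (1.72%) and 376 lower (1.93%), and these included all 26. Without valproate replicate 2, vehicle replicate 1 or vehicle replicate 2 it called 0 genes, with 2846, 1464 and 2329 genes at an unadjusted p under 0.05, and without valproate replicate 3 it called 67. DESeq2's Wald test on all 5 libraries called 1071 genes, 621 higher and 450 lower, which also included the 26. The 26 kept their sign in each of these fits. Leaving out a library could hardly change the sign, since the groups do not overlap for any of the 26.

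At an unadjusted p under 0.05, 1803 genes (9.08%) were higher and 1553 (7.82%) lower with valproate. Without vehicle replicate 1, the library that lowered these counts most, the shares were 3.79% and 3.25%. Without valproate replicates 1, 2 and 3 the shares higher were 11.0%, 7.78% and 7.62%, and the shares lower 11.4%, 6.8% and 6.07%. Counts of list members without a library, given below, are to be set beside the shares of that fit. Many genes lay close to the threshold. A further 39 genes had an edgeR adjusted p of at least 0.05 and under 0.06, among them nr1d2a, TOP2A, VIM and the beta-tubulin tubb4bl. In the text below, genes are said to have risen or fallen only where the adjusted p was under 0.05.

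**Figure D1:**
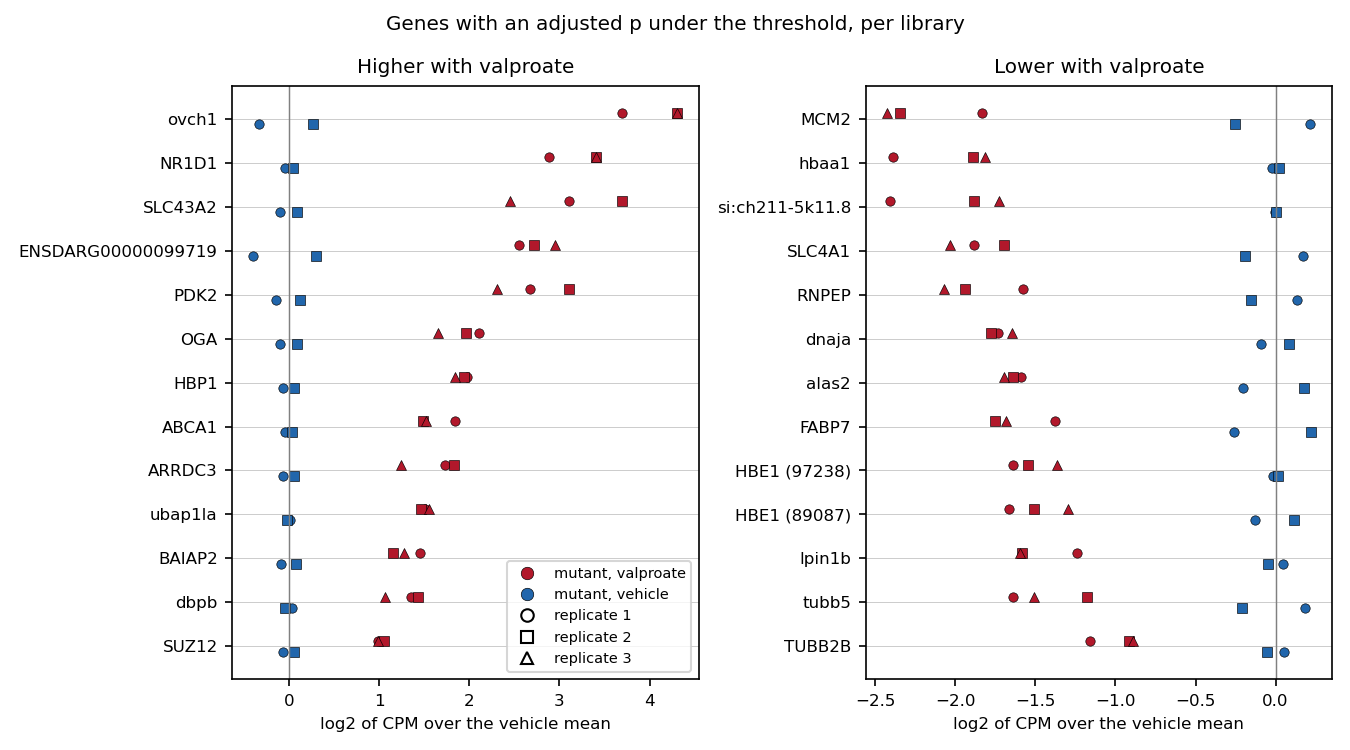
Each point is 1 library, placed by the log2 of its CPM over the mean of the vehicle libraries, for the 13 genes that rose (left) and the 13 that fell (right). Red points are valproate and blue points vehicle. The groups do not overlap for any of the 26 genes, as for 19.3% of all genes tested in the higher and 17.4% in the lower direction, and the HBE1 entries carry the last digits of their gene identifiers.

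NR1D1 (ENSDARG00000033160), which encodes the nuclear receptor REV-ERB alpha, a repressor of the BMAL1 gene within the circadian clock, gave the lowest p of all genes. It had 53.2, 76.5 and 76.5 CPM with valproate, against 6.99 and 7.41 CPM with vehicle. The log2 fold change was 3.24 (standard error 0.21, edgeR adjusted p = 0.011), and all 3 valproate libraries lay far above both vehicle libraries. WT libraries had 6.87 and 4.59 CPM, near the vehicle level of the mutant. The other clock gene that rose was dbpb (ENSDARG00000057652), a D-box binding transcription factor of the clock output, with 67.4, 71.0 and 55.0 CPM with valproate, against 27.0 and 25.6 CPM with vehicle. Its log2 fold change was 1.28 (standard error 0.15, edgeR adjusted p = 0.0412).

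Of 46 clock genes in the table, 45 were tested and 36 had a positive fold change. An unadjusted p under 0.05 was found for 20 members that were higher and 0 that were lower (44.4% and 0%, against 9.08% and 7.82% of all genes), and the median log2 fold change was 0.44, against 0.00398 over all genes. Without vehicle replicate 1, 10 members were higher and 0 lower. The nuclear receptor nr1d2a, a relative of NR1D1, had 325, 174 and 182 CPM with valproate, against 43.8 and 48.9 CPM with vehicle (edgeR adjusted p = 0.0534). The cryptochrome cry3b had 235, 341 and 358 CPM with valproate, against 118 and 153 CPM with vehicle (edgeR adjusted p = 0.0766). Neither passed the threshold. Their groups did not overlap, as for 19.3% of all genes tested in the higher direction.

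The valproate libraries disagreed in other clock genes, which were picked out after their values were seen. The receptor gene nr1d4b had 6.30 CPM in valproate replicate 1 and 50.3 and 53.2 CPM in replicates 2 and 3, against 2.2 and 2.5 CPM with vehicle. For PER3, a period repressor, replicate 1 had 125 CPM and replicates 2 and 3 had 19.6 CPM each, against 56.2 and 68.4 CPM with vehicle. Replicate 1 was thus above both vehicle libraries and replicates 2 and 3 below them. MPH libraries had 4.82, 8.91 and 40.4 CPM of nr1d4b and 141, 179 and 12.3 CPM of PER3, so that MPH replicate 3 was on the side of valproate replicates 2 and 3. Without valproate replicate 1, the test called 12 clock genes higher and 6 lower of 45, in place of 2 higher and 0 lower.

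Glucocorticoid-responsive genes were higher with valproate in part of the list. Of 33 members tested, 12 were higher and 1 lower at an unadjusted p under 0.05 (36.4% and 3.03%), with a median log2 fold change of 0.57, and none passed the adjusted threshold. These counts were 7 higher and 1 lower of 36 without vehicle replicate 1. The member with the lowest p among those higher was hsd20b2, an enzyme that inactivates cortisol in zebrafish, with 18.3, 14.9 and 10.3 CPM with valproate, against 3.69 and 2.55 CPM with vehicle (edgeR adjusted p = 0.0573). The transcription factor gene ZBTB16 had 114, 89.5 and 92.1 CPM with valproate, against 42.2 and 58.7 CPM with vehicle (edgeR adjusted p = 0.0859). For both genes each valproate library was above both vehicle libraries, as for 19.3% of all genes tested.

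FKBP5 and KLF9, chosen after their values were seen, differed widely between the valproate libraries. FKBP5, a co-chaperone of the glucocorticoid receptor that cortisol induces in mammals, had 634, 59.7 and 88.1 CPM with valproate, against 15.1 and 15.0 CPM with vehicle. KLF9, a Krüppel-like factor that glucocorticoids induce, had 95.7, 21.2 and 13.8 CPM with valproate, against 1.76 and 1.82 CPM with vehicle. Every valproate library exceeded both vehicle libraries, as for 19.3% of all genes tested. Replicate 1 exceeded the other valproate libraries by a further wide margin. The log2 fold changes were 4.11 (standard error 1.09, edgeR adjusted p = 0.141) and 4.60 (standard error 0.95, edgeR adjusted p = 0.0933), so neither passed the threshold.

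**Figure D2:**
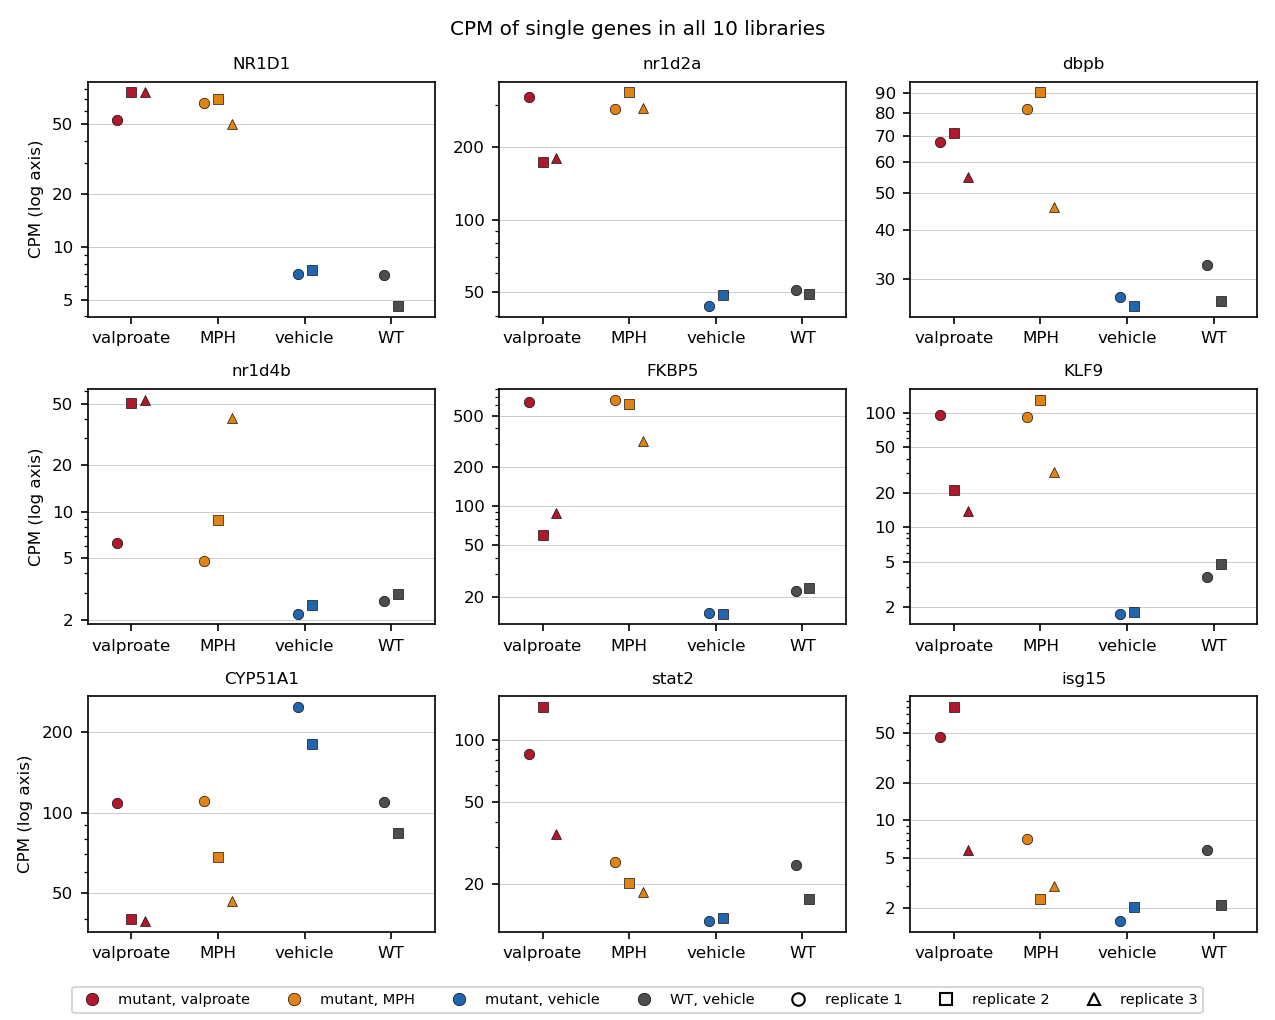
CPM on log axes of 9 genes in all 10 libraries, with 1 symbol shape per replicate number. NR1D1, nr1d2a and dbpb are higher in all valproate libraries than in all vehicle libraries, whereas nr1d4b, FKBP5, KLF9 and CYP51A1 separate valproate replicate 1 from replicates 2 and 3, and stat2 and isg15 are lowest in replicate 3 within the valproate group.

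Several called genes act in fuel and lipid metabolism. PDK2 (ENSDARG00000020876), a kinase that switches off pyruvate dehydrogenase and so spares glucose, had 41.5, 56.1 and 32.4 CPM with valproate, against 5.93 and 7.14 CPM with vehicle. This was a log2 fold change of 2.72 (standard error 0.26, edgeR adjusted p = 0.018). WT libraries had 15.2 and 15.7 CPM, between the levels of both mutant groups. ABCA1 (ENSDARG00000074635), which exports cholesterol from cells, had 283, 222 and 226 CPM with valproate, against 76.6 and 81.1 CPM with vehicle, a log2 fold change of 1.62 (standard error 0.15, edgeR adjusted p = 0.0173). lpin1b, a lipin phosphatase of glycerolipid synthesis, fell to 9.60, 7.59 and 7.52 CPM with valproate, against 23.4 and 22.0 CPM with vehicle. Its log2 fold change was −1.47 (standard error 0.18, edgeR adjusted p = 0.0435).

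Of 57 genes of fatty acid oxidation and carnitine metabolism tested, 10 were higher and 1 lower at an unadjusted p under 0.05 (17.5% and 1.75%), while the list's median log2 fold change was −0.02. Among the members that were higher were regulators of fuel choice. CPT1B, the carnitine palmitoyltransferase that brings long-chain fatty acids into mitochondria, had 2.71, 6.61 and 4.70 CPM with valproate, against 0.835 and 0.909 CPM with vehicle (edgeR adjusted p = 0.0859). PDK4, another pyruvate dehydrogenase kinase, had 6.98, 19.97 and 9.22 CPM with valproate, against 1.58 and 2.68 CPM with vehicle (edgeR adjusted p = 0.0933).

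Cholesterol synthesis genes lay lower. Of 37 genes of cholesterol synthesis and uptake tested, 17 were lower and 1 higher at an unadjusted p under 0.05 (45.9% and 2.70%), with a median log2 fold change of −0.65, and only ABCA1 passed the adjusted threshold. CYP51A1, which removes a methyl group from lanosterol, had 108, 40.2 and 39.4 CPM with valproate, against 248 and 181 CPM with vehicle (log2 fold change −1.78, edgeR adjusted p = 0.119). DHCR7, which completes the synthesis, had 17.5, 13.3 and 14.5 CPM with valproate, against 33.3 and 24.7 CPM with vehicle (log2 fold change −0.95, edgeR adjusted p = 0.0869). Replicate 1 was nearest to vehicle. Relative to the vehicle mean, the median member stood at −0.19, −0.88 and −0.98 (log2) in valproate replicates 1, 2 and 3. Without replicate 1, the test called 20 members lower and 1 higher. At an unadjusted p under 0.05, 29 were lower (78.4%, against 11.4% of all genes in that fit). That number was 10 without valproate replicate 2 and 7 without valproate replicate 3. The list's median log2 fold change was −0.55 without vehicle replicate 1 and −0.68 without vehicle replicate 2. In WT libraries the median member stood at −0.41 and −0.63, relative to the vehicle mean.

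Heat shock chaperones were lower as a group, and dnaja fell. dnaja (ENSDARG00000051762), an Hsp40 co-chaperone, had 10.0, 9.76 and 10.7 CPM with valproate, against 31.4 and 35.4 CPM with vehicle. The log2 fold change was −1.73 (standard error 0.14, edgeR adjusted p = 0.0148), and WT libraries had 22.6 and 40.3 CPM. In the list of 65 chaperones tested, to which dnaja does not belong, 27 were lower and 0 higher at an unadjusted p under 0.05 (41.5% and 0%), with a median log2 fold change of −0.47. SERPINH1, the collagen chaperone Hsp47, had 1.65, 4.49 and 3.37 CPM with valproate, against 20.3 and 18.5 CPM with vehicle (log2 fold change −2.63, edgeR adjusted p = 0.0556). HSP90AA1, the inducible form of Hsp90, had 180, 135 and 192 CPM with valproate, against 340 and 334 CPM with vehicle (log2 fold change −1.01, edgeR adjusted p = 0.0712). None of the 65 passed the adjusted threshold, and 19 did without valproate replicate 1. At an unadjusted p under 0.05, 17 of 66 were lower without vehicle replicate 1.

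The cell division gene MCM2 fell. MCM2 (ENSDARG00000102798), a subunit of the helicase that opens DNA at replication origins, had 8.63, 6.06 and 5.72 CPM with valproate, against 35.7 and 25.8 CPM with vehicle. Its log2 fold change was −2.19 (standard error 0.23, edgeR adjusted p = 0.0275), and WT libraries, at 11.5 and 9.52 CPM, were also below the vehicle mutants. Of 60 DNA replication genes tested, 18 were lower and 0 higher at an unadjusted p under 0.05 (30% and 0%), with a median log2 fold change of −0.41. TOP2A, the topoisomerase that untangles replicated DNA, had 4.07, 4.59 and 2.26 CPM with valproate, against 19.7 and 17.1 CPM with vehicle (log2 fold change −2.35, edgeR adjusted p = 0.0501). MCM5 had 4.02, 4.14 and 2.21 CPM with valproate, against 19.4 and 13.2 CPM with vehicle (edgeR adjusted p = 0.0573). The median replication gene stood at −0.39, −0.27 and −0.44 (log2 relative to the vehicle mean) in the valproate libraries. WT libraries stood lower, at −0.55 and −0.54.

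Of 65 mitosis genes tested, 36 were lower and 1 higher at an unadjusted p under 0.05 (55.4% and 1.54%), and the median log2 fold change, −1.23, was the lowest of the lists. CDK1, the kinase that drives entry into mitosis, had 1.26, 1.73 and 1.43 CPM with valproate, against 5.98 and 5.23 CPM with vehicle (log2 fold change −1.94, edgeR adjusted p = 0.0635). KIF4A, a chromosome-bound kinesin, had 2.52, 2.51 and 2.03 CPM with valproate, against 8.74 and 6.00 CPM with vehicle (log2 fold change −1.66, edgeR adjusted p = 0.0766). No mitosis gene passed the adjusted threshold, and 4 of 64 did without valproate replicate 1. The list's median was −1.15 without vehicle replicate 1 and −1.25 without vehicle replicate 2. Leaving out vehicle replicate 1, 19 of 65 were lower and 1 higher at an unadjusted p under 0.05. The median member stood at −0.87, −0.79 and −1.05 (log2 relative to the vehicle mean) in the valproate libraries and at −0.74 and −0.75 in the WT libraries, so the WT libraries too lay below the vehicle mutants. All these values share the 2 vehicle libraries as their reference.

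Beta-tubulin genes fell. tubb5 (ENSDARG00000037997), a beta-tubulin of young neurons in zebrafish, had 102, 141 and 112 CPM with valproate, against 361 and 274 CPM with vehicle (log2 fold change −1.44, standard error 0.18, edgeR adjusted p = 0.0477). TUBB2B (ENSDARG00000039522), a beta-tubulin needed for neuronal migration in mammals, had 120, 141 and 144 CPM with valproate, against 277 and 257 CPM with vehicle (log2 fold change −1.0, standard error 0.12, edgeR adjusted p = 0.0483). Both were intermediate in WT, at 184 and 216 CPM for tubb5 and 200 and 182 CPM for TUBB2B. Of all 18 tubulin genes, each of which was tested, 11 were lower and 1 higher at an unadjusted p under 0.05 (61.1% and 5.56%), with a median log2 fold change of −0.66. The number lower was 6 without vehicle replicate 1. The median tubulin stood at −0.61, −0.60 and −0.68 (log2 relative to the vehicle mean) in the valproate libraries. In WT libraries it stood at −0.56 and −0.54. Tubulin genes resemble each other in sequence, and reads may have been assigned between copies or left out.

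FABP7 (ENSDARG00000034650), a brain fatty acid binding protein gene in the radial glia list, fell to 14.9, 11.4 and 12 CPM with valproate, against 32.2 and 45 CPM with vehicle. The log2 fold change was −1.60 (standard error 0.19, edgeR adjusted p = 0.0435). Radial glia are the neural stem cells of the fish brain. Their summed markers ran from 9980 to 13502 CPM with valproate and from 12604 to 14501 CPM with vehicle, so the groups overlapped. Of 42 radial glia genes tested, 12 were lower and 2 higher at an unadjusted p under 0.05 (28.6% and 4.76%), with a median of −0.25. The list's median was −0.19 without vehicle replicate 1 and −0.30 without vehicle replicate 2, fits that each leave 1 vehicle library. The glutamate transporter SLC1A3 had 305, 287 and 295 CPM with valproate, against 511 and 456 CPM with vehicle (log2 fold change −0.72, edgeR adjusted p = 0.0735), and the intermediate filament gene VIM had 19.3, 15.7 and 18.1 CPM with valproate, against 42.0 and 36.2 CPM with vehicle (edgeR adjusted p = 0.0534). For both genes every valproate library was below both vehicle libraries, as for 17.4% of all genes tested.

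Myelin genes were lower in part. Of 24 myelin and oligodendrocyte genes tested, 13 were lower and 1 higher at an unadjusted p under 0.05 (54.2% and 4.17%), with a median log2 fold change of −0.42, and 0 passed the adjusted threshold in edgeR (7 were lower and 1 higher at that threshold in DESeq2). At an unadjusted p under 0.05, 7 were lower without vehicle replicate 1. FA2H, which hydroxylates myelin lipids, had 31.0, 27.3 and 32.7 CPM with valproate, against 67.8 and 49.5 CPM with vehicle (log2 fold change −0.96, edgeR adjusted p = 0.0766). Of 47 neuron genes tested, 9 were lower and 4 higher at an unadjusted p under 0.05 (19.1% and 8.51%), with a median of −0.02. The light neurofilament gene nefla had 136, 119 and 143 CPM with valproate, against 251 and 219 CPM with vehicle (log2 fold change −0.84, edgeR adjusted p = 0.0635).

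Red blood cell genes made up 6 of the 13 genes that fell. They were 6 of 18 blood genes tested (33.3%, against 0.0655% of all genes called lower). In 1 fit over all 10 libraries, 0 of the 18 were called. In that fit 10 were lower at an unadjusted p under 0.05 (55.6%, against 5.13% of all genes). Alpha-globin hbaa1 (ENSDARG00000097011) had 49.6, 70.2 and 73.9 CPM with valproate, against 256 and 264 CPM with vehicle. This was a log2 fold change of −2.02 (standard error 0.17, edgeR adjusted p = 0.0148). alas2, the first enzyme of haem synthesis in red cells, had 14.9, 14.4 and 13.9 CPM with valproate, against 39.1 and 50.7 CPM with vehicle (log2 fold change −1.65, edgeR adjusted p = 0.0173). SLC4A1 (ENSDARG00000012881), the band 3 anion exchanger of the red cell membrane, had 6.50, 7.40 and 5.86 CPM with valproate, against 26.9 and 21.0 CPM with vehicle (log2 fold change −1.87, edgeR adjusted p = 0.0213). The other 3 were the beta-type globin entries HBE1 (ENSDARG00000089087 and ENSDARG00000097238), with log2 fold changes of −1.50 and −1.52, and si:ch211-5k11.8, with −1.99. Globin copies are near-identical, so the split of reads between them is uncertain.

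The summed level of the 24 blood markers was 621 to 722 CPM with valproate, against 1578 to 1724 CPM with vehicle, and 3 markers were at 0 in each group. It spanned 665 to 1791 CPM in MPH libraries and 1009 to 1450 CPM in WT libraries. In bulk tissue, fewer red cells in the sample and less RNA per cell cannot be told apart, and the part of blood content in other results was not tested. The same limit holds for the myelin, glial and cell division genes.

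**Figure D3:**
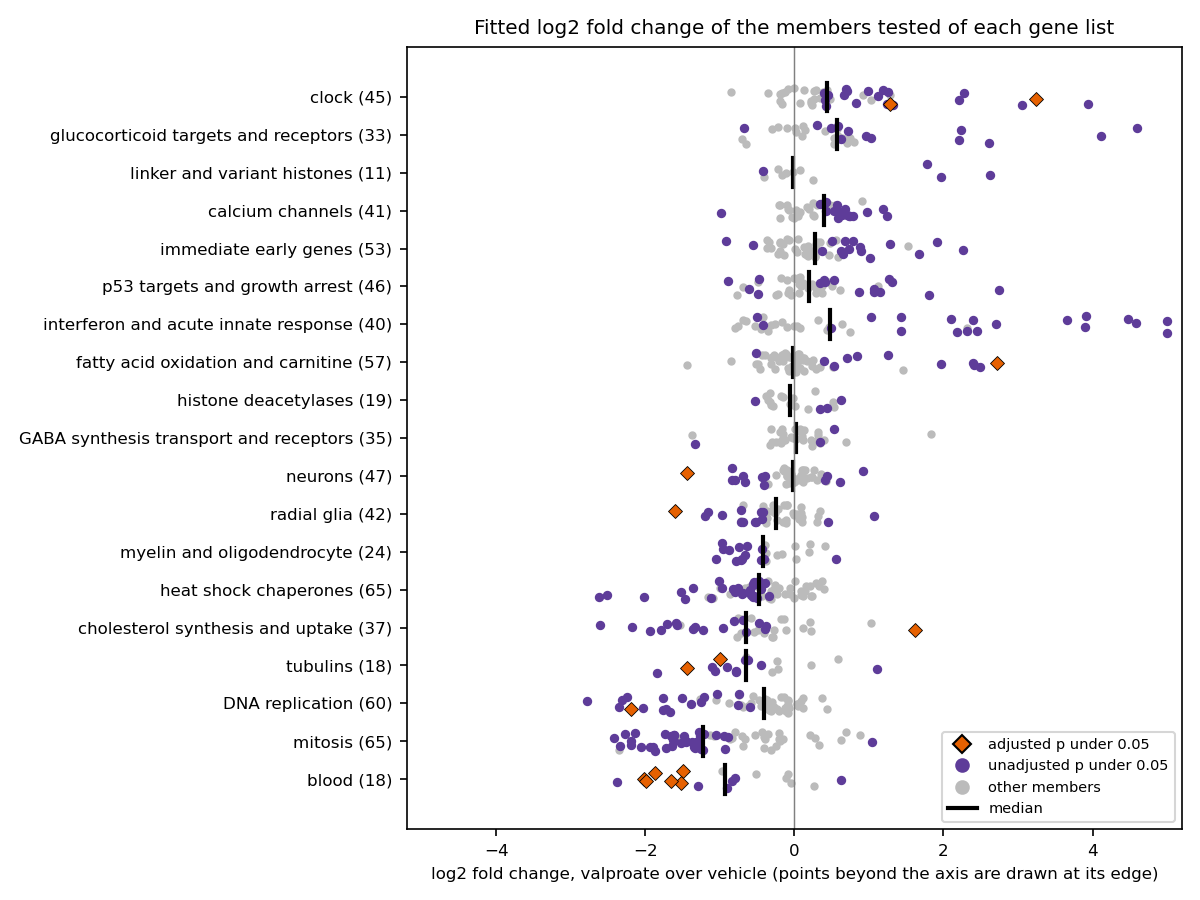
Fitted log2 fold change (valproate over vehicle) of each member tested, by gene list, with the number of members in brackets. Orange diamonds have an adjusted p under 0.05, purple points an unadjusted p under 0.05, and the black bar is the list's median: −1.23 for mitosis, −0.94 for blood, −0.65 for cholesterol synthesis, and 0.44 for clock genes.

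Chromatin genes were examined because HDACs are targets of valproate. Of 19 HDAC and sirtuin genes tested, 3 were higher and 1 lower at an unadjusted p under 0.05 (15.8% and 5.26%), with a median log2 fold change of −0.07. Without vehicle replicate 1, none of the 19 had an unadjusted p under 0.05. The mitochondrial deacetylase SIRT3 had 17.0, 24.2 and 24.2 CPM with valproate, against 13.2 and 14.7 CPM with vehicle (log2 fold change 0.63, edgeR adjusted p = 0.179). Of 11 linker and variant histone genes tested, 3 were higher and 1 lower at an unadjusted p under 0.05 (27.3% and 9.09%), with a median of −0.02. None passed the adjusted threshold in edgeR, and 3 were called higher in DESeq2. Without valproate replicate 1, edgeR called 3 higher and 1 lower, without replicate 2 it called 0, and without replicate 3 it called 3 higher. The linker histone gene histh1l1 had 223, 176 and 80.8 CPM with valproate, against 29.4 and 22.3 CPM with vehicle (log2 fold change 2.62, edgeR adjusted p = 0.0705). SUZ12 (ENSDARG00000098924), a subunit of the polycomb complex that methylates histone H3, was chosen after its values were seen. It rose to 103, 108 and 103 CPM with valproate, against 49.5 and 54.2 CPM with vehicle (log2 fold change 1.00, edgeR adjusted p = 0.0323). MPH libraries had 88.1, 107 and 91.1 CPM of SUZ12, also above both vehicle libraries. Between valproate and MPH, 0 of 11 linker and variant histone genes were higher and 4 lower with valproate at an unadjusted p under 0.05. These were 0% and 36.4%, against 1.81% and 2.25% of all genes, and the median log2 difference was −0.36.

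Valproate is known to act on GABA signalling and sodium channels. Of 35 GABA genes tested, 2 were higher and 1 lower at an unadjusted p under 0.05 (5.71% and 2.86%), with a median log2 fold change of 0.02. The GABA transporter SLC6A13 had 3.73, 7.20 and 6.55 CPM with valproate, against 13.7 and 15.4 CPM with vehicle (log2 fold change −1.33, edgeR adjusted p = 0.098). Of 15 voltage-gated sodium channel genes tested, 2 were higher and 1 lower (13.3% and 6.67%, against 9.08% and 7.82% of all genes). Their member with the lowest p was the sodium channel subunit scn1lab, at 180, 171 and 172 CPM with valproate, against 98.0 and 123 CPM with vehicle (log2 fold change 0.65, edgeR adjusted p = 0.0933). Calcium channel genes were a further list. Of 41 tested, 17 were higher and 1 lower at an unadjusted p under 0.05 (41.5% and 2.44%), with a median of 0.40. This became 7 of 43 higher without vehicle replicate 1. CACNA1B, the pore of N-type channels at synapses, had 75.8, 63.8 and 70.2 CPM with valproate, against 32.6 and 37.9 CPM with vehicle (log2 fold change 0.98, edgeR adjusted p = 0.0556).

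Without valproate replicate 1, more list members passed the adjusted threshold in edgeR's quasi-likelihood test. Over all 19514 genes in that fit, 1.72% were called higher and 1.93% lower, the shares to set beside each count. Of the lists not given without it elsewhere, 6 of 32 glucocorticoid genes and 5 of 57 fatty acid oxidation genes were called higher. In each of these lists 1 gene was called lower. In the other direction, 12 of 60 DNA replication genes and 8 of 18 blood genes were called lower. So were 8 of 24 myelin genes, 8 of 42 radial glia genes and 7 of 17 tubulins. Of 47 neuron genes, 6 were called lower and 1 higher. Among 41 calcium channels 3 were called higher, and among 53 immediate early genes 6. In each of the HDAC (19 genes), sodium channel (15) and interferon (36) lists 1 was called higher. Of 35 GABA genes 2 were called lower, and of 46 p53 genes 3 were called higher and 1 lower. Of 53 antioxidant genes 3 were called lower, and of 49 unfolded protein and amino acid response genes 1 was called higher and 2 lower. Of 44 monoamine genes 1 was called higher and 1 lower. Single genes were called higher among 26 ionotropic glutamate receptors and 14 Na+/K+-ATPase subunits. Single genes were called lower among 51 neuropeptide, 26 endothelium, 85 potassium channel and 102 oxidative phosphorylation genes. No other list had a call in that fit. A single call can lie near the share over all genes, as 2.78% of the interferon list did. These counts rest on 2 libraries per group, and without valproate replicate 2 the test called 0 genes.

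The remaining called genes belong to no list. OGA (ENSDARG00000074686), which removes O-linked N-acetylglucosamine from proteins, had 291, 264 and 213 CPM with valproate, against 63.4 and 71.8 CPM with vehicle (log2 fold change 1.91, edgeR adjusted p = 0.0148). HBP1, a transcriptional repressor that restrains cell cycle entry, had 43.0, 42.1 and 39.2 CPM with valproate, against 10.5 and 11.4 CPM with vehicle (log2 fold change 1.91, edgeR adjusted p = 0.0148). SLC43A2, a transporter of large neutral amino acids, had 93.1, 139 and 59.1 CPM with valproate, against 10.1 and 11.5 CPM with vehicle (log2 fold change 3.16, edgeR adjusted p = 0.0362). All 3 valproate libraries lay above both vehicle libraries for each of these genes, which was a condition for naming them. WT libraries lay above both vehicle libraries too, and below the valproate libraries. They had 103 and 123 CPM of OGA, 19.9 and 22.6 CPM of HBP1, and 27.4 and 24.0 CPM of SLC43A2. BAIAP2, a postsynaptic scaffold protein that shapes actin, had 131, 107 and 116 CPM with valproate, against 45.3 and 50.6 CPM with vehicle (log2 fold change 1.29, edgeR adjusted p = 0.0275). ARRDC3, an alpha-arrestin, had 132, 142 and 94.2 CPM with valproate, against 38.1 and 41.6 CPM with vehicle (log2 fold change 1.61, edgeR adjusted p = 0.0435).

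The highest fold change of a called gene was that of ovch1, at 7.85, 11.9 and 12 CPM with valproate, against 0.483 and 0.728 CPM with vehicle (log2 fold change 4.11, standard error 0.36, edgeR adjusted p = 0.0148). ENSDARG00000099719, an identifier with no symbol, and ubap1la also rose, with log2 fold changes of 2.74 and 1.50. RNPEP, which encodes aminopeptidase B, fell to 5.33, 4.14 and 3.78 CPM with valproate, against 17.5 and 14.3 CPM with vehicle (log2 fold change −1.86, edgeR adjusted p = 0.0481). WT libraries, at 9.10 and 5.95 CPM, were again below the vehicle mutants.

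Stress and activity genes were examined next. Of 53 immediate early genes tested, 14 were higher and 2 lower at an unadjusted p under 0.05 (26.4% and 3.77%), with a median log2 fold change of 0.27. The list's median was 0.18 without vehicle replicate 1 and 0.28 without vehicle replicate 2, fits that each leave 1 vehicle library. FOSB, a subunit of the AP-1 factor that neuronal activity induces, had 12.3, 8.04 and 13.1 CPM with valproate, against 2.77 and 4.14 CPM with vehicle (log2 fold change 1.68, edgeR adjusted p = 0.0825), while WT libraries ranged from 3.23 to 14.3 CPM. Of 46 p53 target and growth arrest genes tested, 12 were higher and 4 lower (26.1% and 8.70%), with a median of 0.19. GADD45A, a growth arrest gene induced by DNA damage, had 12.3, 13.7 and 14.9 CPM with valproate, against 4.61 and 6.59 CPM with vehicle (log2 fold change 1.27, edgeR adjusted p = 0.0774). No member of either list passed the adjusted threshold.

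Interferon-stimulated genes, the first line of antiviral defence, were high in part of the valproate libraries. stat2, a transducer of interferon signals, had 85.5, 144 and 34.9 CPM with valproate, against 13.2 and 13.6 CPM with vehicle (log2 fold change 2.71, standard error 0.54, edgeR adjusted p = 0.0869). The ubiquitin-like gene isg15 had 46.5, 80.0 and 5.76 CPM with valproate, against 1.58 and 2.05 CPM with vehicle (log2 fold change 4.59, standard error 1.05, edgeR adjusted p = 0.109). The antiviral GTPase gene mxa had 16.6, 13.3 and 2.03 CPM with valproate, against 0.395 and 0.546 CPM with vehicle (edgeR adjusted p = 0.0944). Valproate replicate 3 was the lowest valproate library for each of these genes and yet above both vehicle libraries. Such a separation in the higher direction was found for 19.3% of all genes tested. ifit8 was at 1.75, 4.14 and 0.692 CPM with valproate and had 0 counts in both vehicle libraries, so its mean was at least 16.4-fold higher, taking 3 counts per library as the floor. That floor covers counting error only.

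Of 40 genes of the interferon and innate list tested, 17 were higher and 2 lower with valproate at an unadjusted p under 0.05 (42.5% and 5%), with a median log2 fold change of 0.48. The members that were lower, cd74a and cd74b, encode the invariant chain of MHC class II. The median member stood at 0.30, 0.82 and −0.24 (log2 relative to the vehicle mean) in valproate replicates 1, 2 and 3. Without valproate replicate 2 the list's median was 0.0423, with 9 members higher and 6 lower, and without replicate 3 it was 0.74, with 20 higher and 0 lower. At the adjusted threshold edgeR called 0 of 40 with every library and 0 of 37 without valproate replicate 2. It called 7 of 41 higher without valproate replicate 3 (17.1%, against 0.276% of all genes). With the replicate number as a block, 10 of 40 were called higher (25%, against 0.484% of all genes). The list's median was 0.32 without vehicle replicate 1 and 0.78 without vehicle replicate 2, fits that each leave 1 vehicle library.

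**Figure D4:**
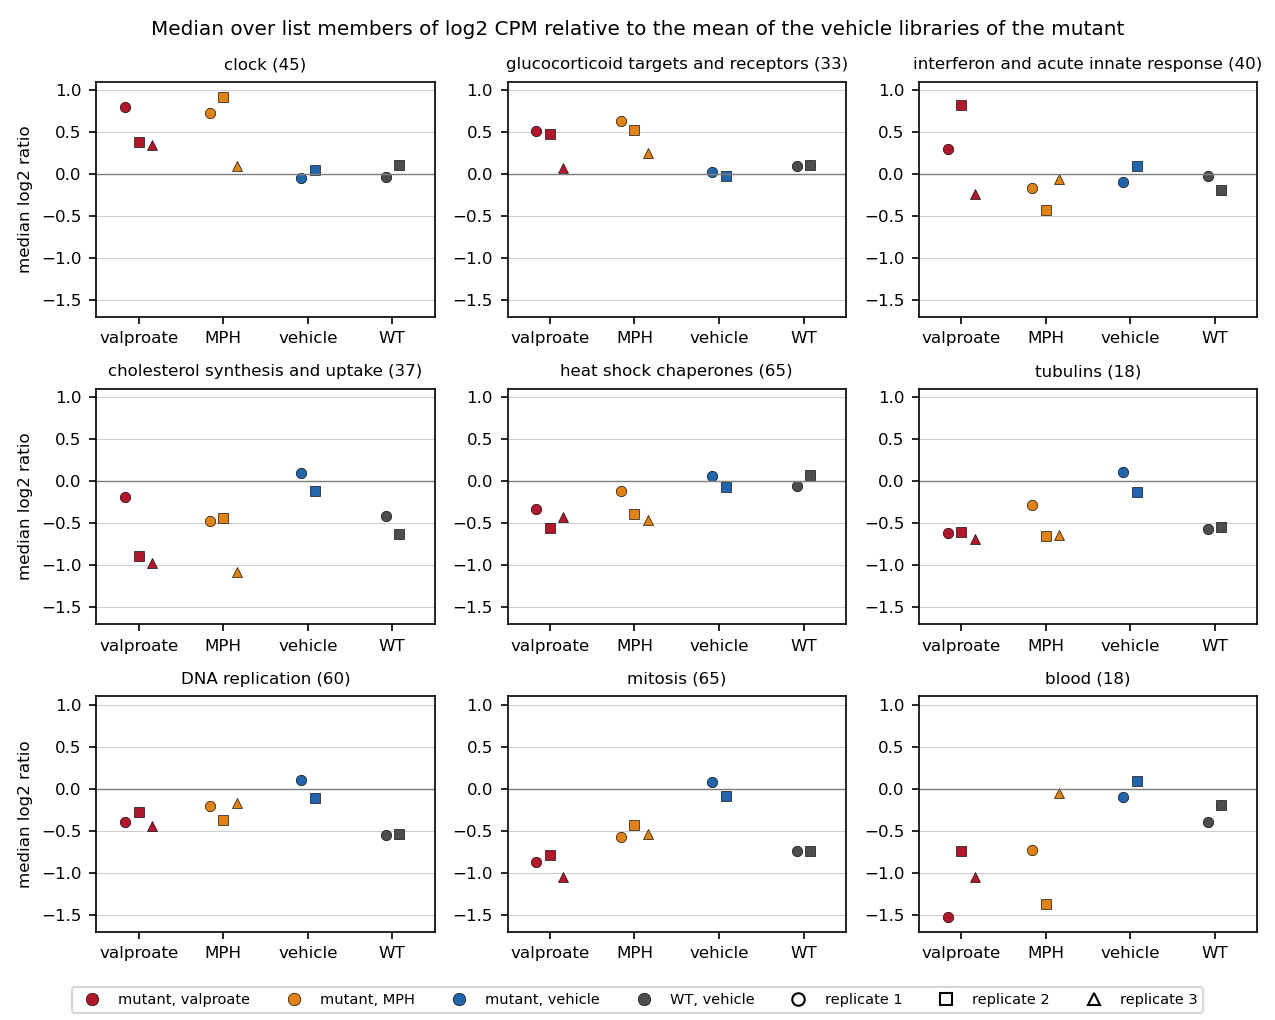
Median over the members tested of the log2 ratio of CPM (with 0.5 added) to the mean of the mutant vehicle libraries, for 9 gene lists in each of the 10 libraries. Mitosis genes lie at −0.79 to −1.05 in valproate libraries and at −0.74 and −0.75 in WT libraries, cholesterol genes separate valproate replicate 1 from the other replicates, and the interferon list is high in valproate replicates 1 and 2.

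The 3 MPH libraries allowed a comparison of the drugs that uses no vehicle library. Among 19387 genes tested between valproate and MPH, edgeR's quasi-likelihood test called 0 (0%), DESeq2's Wald test called 41, and 787 (4.06%) had an unadjusted p under 0.05, 350 higher (1.81%) and 437 lower (2.25%) with valproate. This does not show that the drugs act alike, since replicates differed widely within each drug group. The doses were 300 mg/kg of valproate and 1.08 mg/kg of MPH, and only these doses were given. NR1D1 had 53.2, 76.5 and 76.5 CPM with valproate and 66.0, 70.4 and 50.1 CPM with MPH. OGA had 291, 264 and 213 CPM with valproate and 305, 324 and 209 CPM with MPH. The levels of both genes overlapped between the drugs. PDK2 had 68.6, 66.2 and 46.7 CPM with MPH, HBP1 66.7, 59.8 and 41.7 CPM, and dnaja 8.31, 8.55 and 9.02 CPM. For these genes every MPH library was on the valproate side of both vehicle libraries. For hbaa1, MPH replicate 3 (268 CPM) lay above both vehicle libraries. The median mitosis gene stood at −0.58, −0.43 and −0.53 (log2 relative to the vehicle mean) with MPH. Both drugs share the same vehicle libraries as reference.

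Interferon genes were the list in which most members were higher with valproate than with MPH. Of 38 tested, 15 were higher and 0 lower at an unadjusted p under 0.05, with a median log2 difference of 0.82, which became 0.15 without valproate replicate 2 (11 of 38 higher). isg15 had 46.5, 80.0 and 5.76 CPM with valproate, against 7.16, 2.38 and 2.99 CPM with MPH, so valproate replicate 3 fell within the MPH range. stat2 had 85.5, 144 and 34.9 CPM with valproate, against 25.4, 20.1 and 18.1 CPM with MPH, with no overlap, as for 4.68% of all genes tested in the higher direction (4.46% in the lower). Cytosolic ribosomal protein genes were lower with valproate than with MPH, in 73 of 81 members at an unadjusted p under 0.05 and with a median log2 difference of −0.68. Their sum was 25455 to 32019 CPM with valproate, against 65593, 34264.5 and 38738 CPM in MPH replicates 1, 2 and 3. Without valproate replicate 3, 7 of 82 were lower and the median was −0.62, without valproate replicate 2, 32 of 81 were lower and the median was −0.68, and without MPH replicate 1, 31 of 81 were lower and the median was −0.35. Over all genes, 506 of 19888 had an unadjusted p under 0.05 in either direction without valproate replicate 2. The numbers were 386 of 19922 without valproate replicate 3 and 419 of 19926 without MPH replicate 1. No member of either list passed the adjusted threshold in edgeR.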

How the data were processed

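RNA was sequenced from brains in 10 libraries of 2 pooled brains each, of which 5 enter the main comparison. The authors prepared libraries with the NEBNext Ultra kit, sequenced both ends of fragments, removed adapters and poor reads, trimmed the rest, mapped them to the zv10 release with STAR 2.6.1d and deposited raw counts per gene from its GeneCounts mode, without normalization, for 32266 genes. The strand setting is not given in the sources used here, so overlapping and antisense genes cannot be told apart. Gene symbols came from a table of identifiers and names that matched 26433 identifiers. Many of its names are in capitals and are printed so.

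Low-count genes were removed with filterByExpr (smallest count 10, smallest total 15), libraries were scaled by TMM, and groups were compared by the quasi-likelihood test in edgeR 4.0.16 under R 4.3.3, with Benjamini-Hochberg adjustment over all genes and a threshold of 0.05. Standard errors are the log2 fold change divided by the square root of F. The test was also run on simulated counts, and nothing in the results rests on that run. Alternatives were DESeq2 1.42.0, its size factors, other filters, all 10 libraries in 1 fit, limma-voom (limma 3.58.1) with quality weights, a block for the replicate number, and leaving out each library. Tables and figures used Python 3.11.15, pandas 2.3.3 and matplotlib 3.10.9.

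The 39 gene lists and the comparison itself were chosen with earlier results of these data known. Lists are described by counts and medians, with no set test. Named genes were the 12 highest and the 12 lowest fold changes among called genes (adjusted p under 0.05) whose groups did not overlap and whose CPM averaged 1 or more, every list member with an adjusted p under 0.05 and, where fewer than 3 passed, members with the lowest p up to 4 in all. Sequences are not shown, and 1 gene is not reported here.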

Additional observations from a re-analysis of the deposited data

How the results depend on the processing

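The number of genes called between valproate and vehicle differed widely between settings. Against 26 genes (13 higher, 13 lower) in edgeR's quasi-likelihood test, DESeq2's Wald test called 1071 (621 higher, 450 lower) of 26067 genes tested in place of 19850, limma-voom with quality weights 536 (249 higher, 287 lower), no filter on low counts 267 (145 higher, 122 lower) and a minimum of 10 counts in every library 78 (38 higher, 40 lower). DESeq2's size factors left 26, and 1 fit over all 10 libraries called 18 (15 higher, 3 lower), of which 11 were among the 26. In the fit over all 10 libraries, 0 genes of the blood, tubulin, radial glia and neuron lists were called. Leaving out each library in turn gave 0 to 712 calls, with the 0 arising without valproate replicate 2, vehicle replicate 1 or vehicle replicate 2. Where 1 vehicle library was left, it was assumed to vary like the valproate libraries. With the replicate number as a block, 135 genes were called (96 higher, 39 lower), 24 of them among the 26. The labels do not say whether same-numbered libraries share more than a number. The correlations of their deviations from the group means were 0.10 and −0.0036. With 2 vehicle libraries these deviations mirror each other, so the correlations cannot decide it. Between valproate and MPH, against 0 calls (787 genes at an unadjusted p under 0.05), DESeq2 called 41 (35 higher, 6 lower), no filter 1 and the block 2, where those correlations were 0.25, −0.27 and 0.22. Leaving out each library gave 0 to 1. The causes of these differences were not tested. All 26 calls kept their direction under each alternative tried, which leaving out a library could hardly change, since their groups do not overlap. The medians of the histone deacetylase, linker histone, GABA, fatty acid oxidation and neuron lists changed sign under at least 1 alternative. So did those of the unfolded protein, PP2A, monoamine, neuropeptide, microglia, endothelium, pituitary, and retina and pineal lists. The medians of the nuclear oxidative phosphorylation, mitochondrially encoded, proteasome, Na+/K+-ATPase and potassium channel lists did too. The 3 and 2 libraries limit the precision. How depth limits it was not tested.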

Other observations

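Further gene groups were examined. Over all genes, 9.08% were higher and 7.82% lower with valproate at an unadjusted p under 0.05. Of 34 PP2A subunit and regulator genes tested, 2 were higher and 1 lower at that threshold (5.88% and 2.94%). Beside the targeted gene, its second zebrafish copy ppp2r2cb had 28.6, 27.1 and 23.0 CPM with valproate, against 18.3 and 17.7 CPM with vehicle (log2 fold change 0.53, edgeR adjusted p = 0.162), and WT libraries had 26.4 and 28.5 CPM. Of 86 potassium channel genes 6 were higher and 2 lower (6.98% and 2.33%). Of 46 proteasome genes 0 were higher and 2 lower (0% and 4.35%), and of 13 mitochondrially encoded genes none had an unadjusted p under 0.05. Of 102 nuclear genes of oxidative phosphorylation 2 were higher and 6 lower (1.96% and 5.88%). Without valproate replicate 1, 35 of these 102 (34.3%) and 9 of the 46 proteasome genes (19.6%) were lower, against 11.4% of all genes in that fit. Without vehicle replicate 1, 0 of 103 oxidative phosphorylation genes and 1 of 46 proteasome genes were lower, and among potassium channels 1 was higher.

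Of 45 genes of monoamine synthesis, transport and breakdown tested, 1 was higher and 3 lower at an unadjusted p under 0.05. These were 2.22% and 6.67%, against 9.08% and 7.82% of all genes. The monoamine oxidase gene mao had 52.5, 56.4 and 56.8 CPM with valproate, against 93.7 and 81.6 CPM with vehicle (log2 fold change −0.68, edgeR adjusted p = 0.0766), and the dopamine receptor gene drd4a had 11.7, 12.6 and 12.4 CPM with valproate, against 5.27 and 6.37 CPM with vehicle (log2 fold change 1.06, edgeR adjusted p = 0.0825). WT libraries had 101 and 93.1 CPM of mao and 7.64 and 5.11 CPM of drd4a, each near the vehicle mutants.

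In the unfolded protein and amino acid response list, 3 of 49 members were higher and 6 lower at an unadjusted p under 0.05. These were 6.12% and 12.2%, against 9.08% and 7.82% of all genes. The endoplasmic reticulum chaperone HSPA5 had 212, 222 and 194 CPM with valproate, against 319 and 279 CPM with vehicle (log2 fold change −0.53, edgeR adjusted p = 0.116). The cystine transporter slc7a11 had 6.79, 9.76 and 5.40 CPM with valproate, against 16.1 and 22.1 CPM with vehicle (log2 fold change −1.40, edgeR adjusted p = 0.0868). Of 82 cytosolic ribosomal protein genes, 80 had a negative fold change, with a median of −0.27. An unadjusted p under 0.05 was found for 18 of these (22.0% of the list, against 7.82% of all genes). That number was 50 without valproate replicate 1, 6 without valproate replicate 2, 0 without valproate replicate 3 and 0 in 1 fit over all 10 libraries. Over all genes, 11.4%, 6.8% and 6.07% were lower without valproate replicates 1, 2 and 3, and 5.13% in the fit over all 10 libraries. The median of the ribosomal list ranged from −0.43 (without vehicle replicate 2) to −0.11 (without vehicle replicate 1) when a library was left out. Their sum was 25455 to 32019 CPM with valproate and 30720 to 38593 CPM with vehicle, so the groups overlapped.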
